A study of Mus musculus with 8 samples.

Results

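The genes described here are 40 that encode the DNA replication machinery, chosen by name from the gene count table, of 52997 gene symbols in all. The choice was made with earlier results of these data known, so the shares of all tested genes given below are no independent comparison. Every symbol was found, each had at least 20 counts summed over the 8 libraries (the lowest, E2f1, had 128), and all 40 were among the 11490 symbols with enough counts to be tested. They fall into 9 role groups: origin recognition and licensing (Orc1, Orc6, Cdc6, Cdt1), the subunits of the replicative helicase (Mcm2 to Mcm7), its activation (Cdc45, Gins1, Gins2, Mcm10), primase and polymerases (Pola1, Prim1, Prim2, Pold1, Pole), the sliding clamp and its loader (Pcna, Rfc2, Rfc3, Rfc4, Rfc5), single-strand binding, flap cutting and ligation (Rpa1, Rpa2, Fen1, Lig1), nucleotide supply and uracil removal (Tyms, Rrm1, Rrm2, Tk1, Dut, Ung), chromatin assembly (Chaf1a, Chaf1b), and entry into S phase (Ccne1, Ccne2, E2f1, E2f2). They were measured by bulk RNA sequencing of liver T cells, in 4 groups of 2 libraries: PD-1+ cells of 10-day-old mice, PD-1+ cells of 5-day-old mice, and PD-1- cells of 10-day-old and of 5-day-old mice. PD-1, encoded by Pdcd1, is an inhibitory receptor of activated T cells. All 4 groups came from livers of C57BL/6 mice that lack Aire, the thymic factor by which medullary epithelium shows self antigens to developing T cells, and that carry a GFP reporter of Foxp3, the factor of regulatory T cells. The sorted cells were DAPI- (live), CD45+, TCRb+, CD4+ and Foxp3-, and per the labels each library was made from 1000 of them after a repeated sort. No Aire-sufficient mice were analysed here, so every difference below is between populations or ages of Aire-deficient mice. Whether the libraries of a group came from separate animals is not in the labels, and p-values therefore measure the spread between these libraries alone, which may in part be technical.

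A cell copies its genome in S phase. In G1 the origin recognition complex, Cdc6 and Cdt1 load the Mcm2 to Mcm7 ring onto DNA; at S phase entry, kinases turn it into an active helicase with Cdc45 and the GINS complex, and polymerases follow, held on the DNA by the Pcna clamp. Many of these genes are transcribed through E2F factors once cyclin-dependent kinases have inactivated the retinoblastoma protein, so that resting T cells carry little of them and T cells that divide after antigen carry much.

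Library totals ranged from 1473216 to 3019551 counts, and the 40 genes took 0.655 to 0.896% of all counts in the PD-1+ libraries and 0.291 to 0.350% in the PD-1- libraries. Pdcd1 stood at 269 to 696 CPM in PD-1+ libraries and 0.568 to 1.95 CPM in PD-1- libraries, in the direction of the sort. CPM here is a gene's counts per 1000000 counts of the tested genes in its library, divided by the library's TMM factor. The sums of cell type markers further on use another scale, given there. Both 5-day libraries numbered 3 had Y-linked counts (601 in PD-1+ cells, 672 in PD-1- cells) and almost no Xist (1 and 5 counts), whereas the other 6 had 698 to 1842 Xist counts and no Y-linked count. Every 10-day library was therefore of the second kind. Calls of the 40 genes that involve age are also given without those 2 libraries numbered 3. The age results of the other gene lists, of the role groups and of the summed levels are not. The 2 libraries of each 5-day group differed in these counts, so they did not come from the same single animal. For the 10-day groups these counts do not tell. Mitochondrial genes took 1.20 to 1.75% of counts in PD-1+ libraries and 1.81 to 2.66% in PD-1- libraries, and the part of this difference in the results was not tested.

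Across both ages, PD-1+ cells carried more RNA of 35 of the 40 genes than PD-1- cells, and less of none. In an edgeR fit over all 11490 tested genes, the share called was 21.9% for genes with more RNA in PD-1+ cells and 19.6% for genes with less. The members' median log2 fold change was 1.56, against -0.01 over all tested genes. At least 2-fold higher were 33 of the 40 (82.5%), and 11.9% of all tested genes met the same rule. The 35 called genes had log2 fold changes of 0.84 to 2.35 with adjusted p of 1.42e-08 to 0.00343 (edgeR, Benjamini-Hochberg over all tested genes, called below 0.05). In the same 35 genes every PD-1+ library lay above every PD-1- library, a pattern in that direction found in 17.2% of all tested genes. The genes not called were Cdt1, Rpa1, Ccne1, E2f1 and E2f2. None was lower at an unadjusted p below 0.05, and DESeq2 called 35 higher and 0 lower. In bulk libraries a larger share of cells in S phase and more of these transcripts per cell cannot be told apart.

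**Figure D1:**
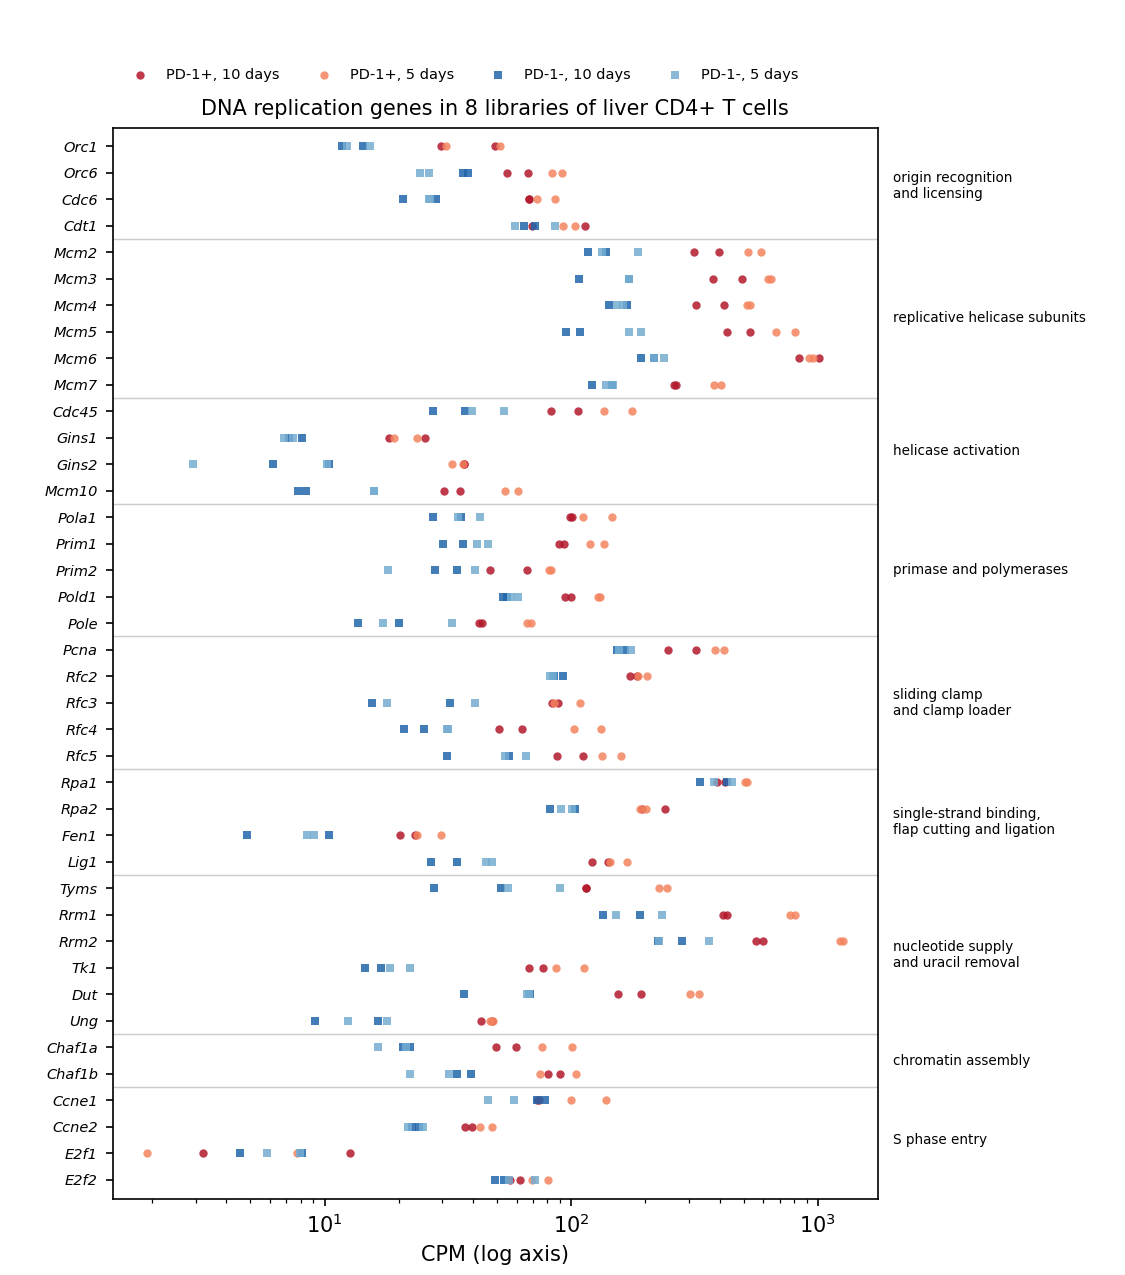
Level of the 40 replication genes in each of the 8 libraries, as CPM on a log axis, grouped by role. Circles are PD-1+ and squares PD-1- libraries, darker at 10 days and lighter at 5 days; in 35 genes all 4 PD-1+ points lie above all 4 PD-1- points, and the 5 others are Cdt1, Rpa1, Ccne1, E2f1 and E2f2.

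All 6 subunits of the replicative helicase were higher in PD-1+ cells, with a median log2 fold change of 1.70. The ring of these subunits unwinds the parental strands. Mcm6 (ENSMUSG00000026355.11, chromosome 1, 128331590 to 128359664, GENCODE M21 on GRCm38) had 1009.7 and 838 CPM in 10-day and 952 and 918 CPM in 5-day PD-1+ libraries, against 216 and 193 CPM in 10-day and 239 and 217 CPM in 5-day PD-1- libraries. The PD-1+ libraries lay at least 3-fold above the PD-1- libraries with no overlap, and Mcm6 had the smallest adjusted p of the 40 genes (log2 fold change 2.10 ± 0.13, edgeR adjusted p = 1.42e-08). Mcm5 (ENSMUSG00000005410.6, chromosome 8, 75109569 to 75128439) had 529 and 426 CPM in 10-day and 808 and 674 CPM in 5-day PD-1+ libraries, against 95.5 and 109 CPM in 10-day and 171 and 192 CPM in 5-day PD-1- libraries. Its groups did not overlap either (log2 fold change 2.13 ± 0.14, edgeR adjusted p = 2.62e-08), and within each population both 10-day libraries lay below both 5-day libraries. Mcm2 stood at 397 and 315 CPM in 10-day and 589.8 and 519 CPM in 5-day PD-1+ libraries, against 138 and 116 CPM in 10-day and 186 and 133 CPM in 5-day PD-1- libraries, with the PD-1+ libraries all higher (log2 fold change 1.64 ± 0.15, edgeR adjusted p = 9.5e-07). For Mcm4 the levels were 417 and 320.5 CPM in 10-day and 516 and 529 CPM in 5-day PD-1+ libraries, against 169 and 142 CPM in 10-day and 154 and 162 CPM in 5-day PD-1- libraries, again without overlap (log2 fold change 1.48 ± 0.15, edgeR adjusted p = 1.78e-06). Mcm7 had the smallest difference of the ring: 265 and 261 CPM in 10-day and 406 and 379 CPM in 5-day PD-1+ libraries, against 146 and 121 CPM in 10-day and 138 and 148 CPM in 5-day PD-1- libraries (log2 fold change 1.22 ± 0.14, edgeR adjusted p = 7.53e-06). Its lowest PD-1+ library was still above its highest PD-1- library. Mcm3 differed by a log2 fold change of 1.76 ± 0.16 (edgeR adjusted p = 6.92e-07).

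Upstream sequences are shown for the 3 helicase subunits among the genes given library by library whose promoter window holds an E2F word ahead of the start site. In RefSeq windows (GRCm38.p6) of 250 bases before to 50 after each start, 33 of the 40 genes were matched, with 38 windows. The words searched on both strands were TTTCCCGC, TTTCGCGC, TTTGCCGC and TTTGGCGC, which can overlap one another in palindromic sites. They occurred in 12 of the 38 windows (31.6%), in 4.16% of the 10634 windows of tested genes and in 2.26% of all 32851 windows of this length. For the mitosis list described further on the share was 1 of 21 windows (4.76%). The capitals mark the E2F words, and each sequence runs 5′ to 3′ towards the base just before the RefSeq start site. The Mcm7 stretch lies inside the GENCODE M21 bounds of that gene (138164583 to 138172422), so it is upstream of this RefSeq start only. Another RefSeq window of Mcm7, without an E2F word, is not shown. The Mcm6 and Mcm5 stretches end outside the GENCODE bounds. For Mcm6, the bases checked after the RefSeq start were not found in a GENCODE transcript. The site of Mcm6 at -110 is made of 2 overlapping words on opposite strands, as is that of Mcm5 at -153; Mcm6 has another word at -47, and Mcm7 has its word on the opposite strand at -165.
Mcm6, chr1:128359706-128359845, minus strand: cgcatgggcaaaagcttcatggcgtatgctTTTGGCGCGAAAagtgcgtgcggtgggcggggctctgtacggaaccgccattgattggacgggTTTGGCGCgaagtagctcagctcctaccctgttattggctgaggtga
Mcm5, chr8:75109326-75109508, plus strand: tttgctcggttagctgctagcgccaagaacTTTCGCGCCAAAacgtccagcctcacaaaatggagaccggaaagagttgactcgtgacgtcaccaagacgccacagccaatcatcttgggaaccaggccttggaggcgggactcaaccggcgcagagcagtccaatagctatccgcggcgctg
Mcm7, chr5:138171884-138172078, minus strand: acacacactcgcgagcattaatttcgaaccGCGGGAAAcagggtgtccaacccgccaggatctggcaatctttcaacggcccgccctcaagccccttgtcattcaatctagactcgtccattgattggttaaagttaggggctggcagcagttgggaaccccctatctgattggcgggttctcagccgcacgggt
CCAAT, the word of the factor NF-Y, was in 55.3% of the members' windows, 90.5% of the mitosis windows and 38.2% of the windows of tested genes. TTTGAA, the core of the element named CHR that is known from mitotic genes, was in 10.5% of the members' windows, 76.2% of the mitosis windows and 12.2% of the windows of tested genes. Such a match is a description of letters in a window and shows no binding.

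All 4 genes of helicase activation were higher in PD-1+ cells (median log2 fold change 1.79). Gins2 (ENSMUSG00000031821.11, chromosome 8, 120578633 to 120589304), a subunit of the GINS complex, had the largest change of the 40 genes, with 36.7 and 36.9 CPM in 10-day and 36.5 and 32.9 CPM in 5-day PD-1+ libraries, against 6.15 and 10.4 CPM in 10-day and 2.92 and 10.2 CPM in 5-day PD-1- libraries. The PD-1+ libraries varied little and every PD-1- library was at least 3-fold lower (log2 fold change 2.35 ± 0.33, edgeR adjusted p = 4.72e-05). Exons of Gse1 on the opposite strand cover 67.3% of the exon length of Gins2, and since the strand setting of the counting is not given in the sources used here, the 2 genes may share reads; Gse1 itself had 332 counts in all and a log2 fold change of -0.86. Cdc45, which joins the Mcm ring to GINS, had 106 and 82.6 CPM in 10-day and 177 and 136 CPM in 5-day PD-1+ libraries, against 27.5 and 37.1 CPM in 10-day and 39.5 and 53.4 CPM in 5-day PD-1- libraries (log2 fold change 1.67 ± 0.18, edgeR adjusted p = 4.43e-06). No PD-1- library reached a PD-1+ library. Mcm10, needed for the helicase to start, had 35.3 and 30.6 CPM in 10-day and 54.0 and 61.1 CPM in 5-day PD-1+ libraries, against 8.42 and 7.81 CPM in 10-day and 15.9 and 15.9 CPM in 5-day PD-1- libraries, also without overlap (log2 fold change 1.92 ± 0.22, edgeR adjusted p = 6.04e-06). Gins1 differed by 1.54 ± 0.28 on the log2 scale (edgeR adjusted p = 0.000531).

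Licensing factors were less uniform, with 3 of 4 higher in PD-1+ cells. Orc6, the smallest subunit of the origin recognition complex, had 67.0 and 54.8 CPM in 10-day and 83.4 and 92.1 CPM in 5-day PD-1+ libraries, against 38.2 and 36.4 CPM in 10-day and 26.6 and 24.4 CPM in 5-day PD-1- libraries. The groups did not overlap (log2 fold change 1.23 ± 0.22, edgeR adjusted p = 0.000467), and the gap was wider at 5 days than at 10 days. Cdt1, the loader that geminin inhibits, had 113 and 69.6 CPM in 10-day and 103 and 92.6 CPM in 5-day PD-1+ libraries, against 71.6 and 64.4 CPM in 10-day and 59.0 and 85.7 CPM in 5-day PD-1- libraries. Here the lowest PD-1+ library, 10-day replicate 2, lay below the highest PD-1- libraries, and Cdt1 was not called (log2 fold change 0.44 ± 0.18, edgeR adjusted p = 0.0689). It would be called without 10-day PD-1+ replicate 2 (log2 fold change 0.57) or without 5-day PD-1- replicate 3 (0.54). Cdc6, which loads the Mcm ring together with Cdt1, differed by 1.50 ± 0.18 on the log2 scale (edgeR adjusted p = 1.31e-05), and Orc1, the largest subunit of the origin complex, by 1.58 ± 0.26 (edgeR adjusted p = 0.000209).

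Primase and polymerase genes were higher in PD-1+ cells in 5 of 5 cases, with a median log2 fold change of 1.38. Prim1, the catalytic subunit of primase, had 93.7 and 89.3 CPM in 10-day and 135 and 119 CPM in 5-day PD-1+ libraries, against 30.1 and 36.4 CPM in 10-day and 46.0 and 41.5 CPM in 5-day PD-1- libraries (log2 fold change 1.50 ± 0.16, edgeR adjusted p = 2.94e-06). Its groups were separated by more than the whole spread of the PD-1- libraries. Pold1, the catalytic subunit of polymerase delta, had 99.7 and 94.2 CPM in 10-day and 130.2 and 128 CPM in 5-day PD-1+ libraries, against 53.1 and 54.6 CPM in 10-day and 60.9 and 56.8 CPM in 5-day PD-1- libraries. The populations did not overlap, and both 10-day PD-1+ libraries lay below both 5-day PD-1+ libraries. Pold1 had the smallest change of the 5 genes (log2 fold change 0.99 ± 0.15, edgeR adjusted p = 8.18e-05). Pola1, the catalytic subunit of polymerase alpha, differed by 1.71 ± 0.17 on the log2 scale (edgeR adjusted p = 1.79e-06). Pole, that of polymerase epsilon, differed by 1.38 ± 0.23 (edgeR adjusted p = 0.000241) and Prim2, the large primase subunit, by 1.18 ± 0.25 (edgeR adjusted p = 0.00189).

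The clamp and its loader were likewise higher in 5 of 5 cases (median log2 fold change 1.23). Pcna, the ring that tethers polymerases, had 321 and 248 CPM in 10-day and 415 and 381 CPM in 5-day PD-1+ libraries, against 165 and 154 CPM in 10-day and 157 and 174 CPM in 5-day PD-1- libraries. There was no overlap (log2 fold change 1.05 ± 0.14, edgeR adjusted p = 3.63e-05). Its pseudogene copies took few counts: Pcna-ps2 had 24 counts and Pcna-ps1 0, against 4745 for Pcna. Rfc2, a small subunit of the clamp loader, had 184 and 173 CPM in 10-day and 203 and 186 CPM in 5-day PD-1+ libraries, against 84.8 and 92.4 CPM in 10-day and 82.0 and 84.0 CPM in 5-day PD-1- libraries, and the populations stood apart (log2 fold change 1.12 ± 0.13, edgeR adjusted p = 8.5e-06). Rfc4, another small subunit, had 63.4 and 51.0 CPM in 10-day and 132 and 103 CPM in 5-day PD-1+ libraries, against 21.0 and 25.4 CPM in 10-day and 31.8 and 31.2 CPM in 5-day PD-1- libraries (log2 fold change 1.62 ± 0.20, edgeR adjusted p = 1.31e-05). The 5-day PD-1+ libraries were the highest, the 10-day PD-1+ libraries came next, and all PD-1- libraries were lower. Rfc3 and Rfc5, also small subunits, differed by 1.78 ± 0.26 and 1.23 ± 0.19 on the log2 scale (edgeR adjusted p = 0.000122 and 9.79e-05).

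Among single-strand binding, flap cutting and ligation genes, 3 of 4 were higher. Rpa1, the large subunit of the single-strand binding protein RPA, which also serves in DNA repair, had 421 and 389.7 CPM in 10-day and 518 and 504 CPM in 5-day PD-1+ libraries, against 427 and 333 CPM in 10-day and 449 and 378 CPM in 5-day PD-1- libraries. The populations overlapped and Rpa1 was not called (log2 fold change 0.20 ± 0.13, edgeR adjusted p = 0.246). Its partner subunit Rpa2 had 240.4 and 194 CPM in 10-day and 202 and 189.5 CPM in 5-day PD-1+ libraries, against 81.9 and 103 CPM in 10-day and 91.1 and 101 CPM in 5-day PD-1- libraries. No PD-1- library came near a PD-1+ library for Rpa2 (log2 fold change 1.13 ± 0.14, edgeR adjusted p = 1.6e-05). Lig1, which seals the pieces of the lagging strand, differed by 1.93 ± 0.16 on the log2 scale (edgeR adjusted p = 3.24e-07). Fen1, the nuclease that removes their flaps, differed by 1.59 ± 0.29 (edgeR adjusted p = 0.00054); exons of Gm10143 cover 78.8% of its exon length, and that gene had 39 counts in all.

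Genes that supply deoxynucleotides or keep uracil out of DNA were higher in 6 of 6 cases, with a median log2 fold change of 1.70. Rrm2 (ENSMUSG00000020649.11, chromosome 12, 24708241 to 24714146), the S phase subunit of ribonucleotide reductase, had 562 and 598 CPM in 10-day and 1261 and 1230.3 CPM in 5-day PD-1+ libraries, against 224 and 280.3 CPM in 10-day and 226 and 362 CPM in 5-day PD-1- libraries. All PD-1+ libraries lay above all PD-1- libraries (log2 fold change 1.65 ± 0.20, edgeR adjusted p = 3.41e-05), and the 5-day PD-1+ libraries were about 2-fold above the 10-day PD-1+ libraries. Rrm1, the large subunit of the same enzyme, had 413 and 427 CPM in 10-day and 808 and 773 CPM in 5-day PD-1+ libraries, against 135 and 191 CPM in 10-day and 152 and 233 CPM in 5-day PD-1- libraries and the same order of groups (log2 fold change 1.71 ± 0.18, edgeR adjusted p = 5.39e-06). Tyms, thymidylate synthase, had 115 and 115 CPM in 10-day and 245 and 228 CPM in 5-day PD-1+ libraries, against 27.9 and 52.0 CPM in 10-day and 55.4 and 90.3 CPM in 5-day PD-1- libraries (log2 fold change 1.64 ± 0.20, edgeR adjusted p = 1.46e-05). The 10-day PD-1+ libraries exceeded the highest PD-1- library by little, and the 5-day PD-1+ libraries by much more. Dut, which breaks down dUTP, had 191 and 154 CPM in 10-day and 331 and 304 CPM in 5-day PD-1+ libraries, against 36.6 and 68.3 CPM in 10-day and 66.4 and 67.6 CPM in 5-day PD-1- libraries, with no overlap (log2 fold change 2.00 ± 0.19, edgeR adjusted p = 1.33e-06). Tk1, the thymidine kinase of the salvage route, differed by 2.26 ± 0.19 on the log2 scale (edgeR adjusted p = 3.24e-07), and Ung, the glycosylase that removes uracil, by 1.69 ± 0.23 (edgeR adjusted p = 4.64e-05).

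Both measured subunits of chromatin assembly factor 1, which deposits histones behind the fork, were higher in PD-1+ cells. Chaf1a had 49.5 and 59.7 CPM in 10-day and 101 and 76.4 CPM in 5-day PD-1+ libraries, against 20.7 and 22.1 CPM in 10-day and 21.4 and 16.5 CPM in 5-day PD-1- libraries (log2 fold change 1.78 ± 0.23, edgeR adjusted p = 1.97e-05). Chaf1b had 80.8 and 89.6 CPM in 10-day and 105 and 75.0 CPM in 5-day PD-1+ libraries, against 39.2 and 34.5 CPM in 10-day and 32.1 and 22.1 CPM in 5-day PD-1- libraries (log2 fold change 1.45 ± 0.20, edgeR adjusted p = 4.14e-05). Neither gene had a PD-1- library within the PD-1+ range. Exons of Ubxn6 on the opposite strand cover 52.5% of the exon length of Chaf1a, and Ubxn6 had a log2 fold change of -0.65 with 1575 counts. In all, exons of 15 of the 40 genes overlap those of another gene, 14 of them on the opposite strand. Gins2, Fen1 and Chaf1a are the 3 cases above 50% of exon length. The neighbours with the most counts cover less. Eif4a2 covers 12.7% of Rfc4, with 8385 counts against 1052 and a log2 fold change of -0.86. Vps35 covers 6.9% of Orc6, with 3925 counts against 998 and a log2 fold change of 0.61. Whether reads were shared was not tested.

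In the S phase entry group 1 of 4 genes was called. Ccne1 (ENSMUSG00000002068.16, chromosome 7, 38097984 to 38107534), a cyclin that activates Cdk2, had 73.7 and 72.4 CPM in 10-day and 139 and 99.8 CPM in 5-day PD-1+ libraries, against 72.9 and 78.1 CPM in 10-day and 46.0 and 58.5 CPM in 5-day PD-1- libraries. The 5-day PD-1+ libraries were the highest, and the 10-day libraries of both populations lay between 72.4 and 78.1 CPM, and the comparison over both ages missed the threshold (log2 fold change 0.57 ± 0.24, edgeR adjusted p = 0.0679). Ccne1 passed it in 4 of the alternatives run: with no filter on low counts (0.61), and without 10-day PD-1+ replicate 1 (0.72), 10-day PD-1+ replicate 2 (0.73) or 10-day PD-1- replicate 2 (0.70). Its paralog Ccne2 was called higher (log2 fold change 0.84 ± 0.20, edgeR adjusted p = 0.00343), with all PD-1+ libraries between 37.0 and 47.7 CPM and all PD-1- libraries between 21.7 and 25.0 CPM. E2f2, an activating E2F factor, had 56.6 and 62.2 CPM in 10-day and 69.5 and 80.2 CPM in 5-day PD-1+ libraries, against 49.2 and 53.3 CPM in 10-day and 55.7 and 71.0 CPM in 5-day PD-1- libraries, with overlapping populations (log2 fold change 0.23 ± 0.16, edgeR adjusted p = 0.275). E2f1, the best known activator of the family, was the least abundant of the 40 genes, with 3.21 and 12.7 CPM in 10-day and 7.72 and 1.91 CPM in 5-day PD-1+ libraries, against 8.10 and 4.55 CPM in 10-day and 5.83 and 7.95 CPM in 5-day PD-1- libraries. Its libraries scattered in both populations (log2 fold change -0.09 ± 0.53, edgeR adjusted p = 0.913), and the sign of its fold change depended on single libraries.

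Per kilobase of exon, the highest level was that of Rrm2, with 329 CPM per kb in PD-1+ cells and 98.5 in PD-1- cells. Mcm6 followed with 199 CPM per kb in PD-1+ cells and 46.3 in PD-1- cells, and Mcm5 with 153 in PD-1+ cells and 35.6 in PD-1- cells. In PD-1- cells the order of these levels differed: Rpa1, at 71.2 CPM per kb, and Pcna, at 67.6, came after Rrm2. In PD-1+ cells the low end was E2f1, with 2.02 CPM per kb (2.10 in PD-1- cells), followed by Pole, with 4.93 (1.88 in PD-1- cells). In PD-1- cells Mcm10, at 1.56 CPM per kb, and Gins2, at 1.81, lay lower than both.

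The PD-1 difference was present at each age. At 10 days 33 of the 40 genes were higher in PD-1+ cells and 0 lower, where 16.4% of all tested genes were higher and 12.9% lower. At 5 days 36 were higher and 0 lower, where 17.6% of all tested genes were higher and 16.7% lower. No member was lower at an unadjusted p below 0.05 at either age, and DESeq2 called 32 higher at 10 days, 36 higher at 5 days and 0 lower at both. The members' median log2 fold change was 1.37 at 10 days, against 0.01 for all genes, and 1.66 at 5 days, against -0.03 for all genes. At both ages 33 genes were called, and Prim2, Ccne1 and Ccne2 were called at 5 days alone. Prim2 had a log2 fold change of 0.84 ± 0.32 at 10 days (edgeR adjusted p = 0.0627) and 1.52 ± 0.33 at 5 days (edgeR adjusted p = 0.00219). For Ccne2 it was 0.72 ± 0.28 at 10 days (edgeR adjusted p = 0.0607) and 0.96 ± 0.28 at 5 days (edgeR adjusted p = 0.0132), so values on either side of the threshold were close together. In 31 genes the fold change was larger at 5 days and in 9 at 10 days. The 2 comparisons use different libraries.

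**Figure D2:**
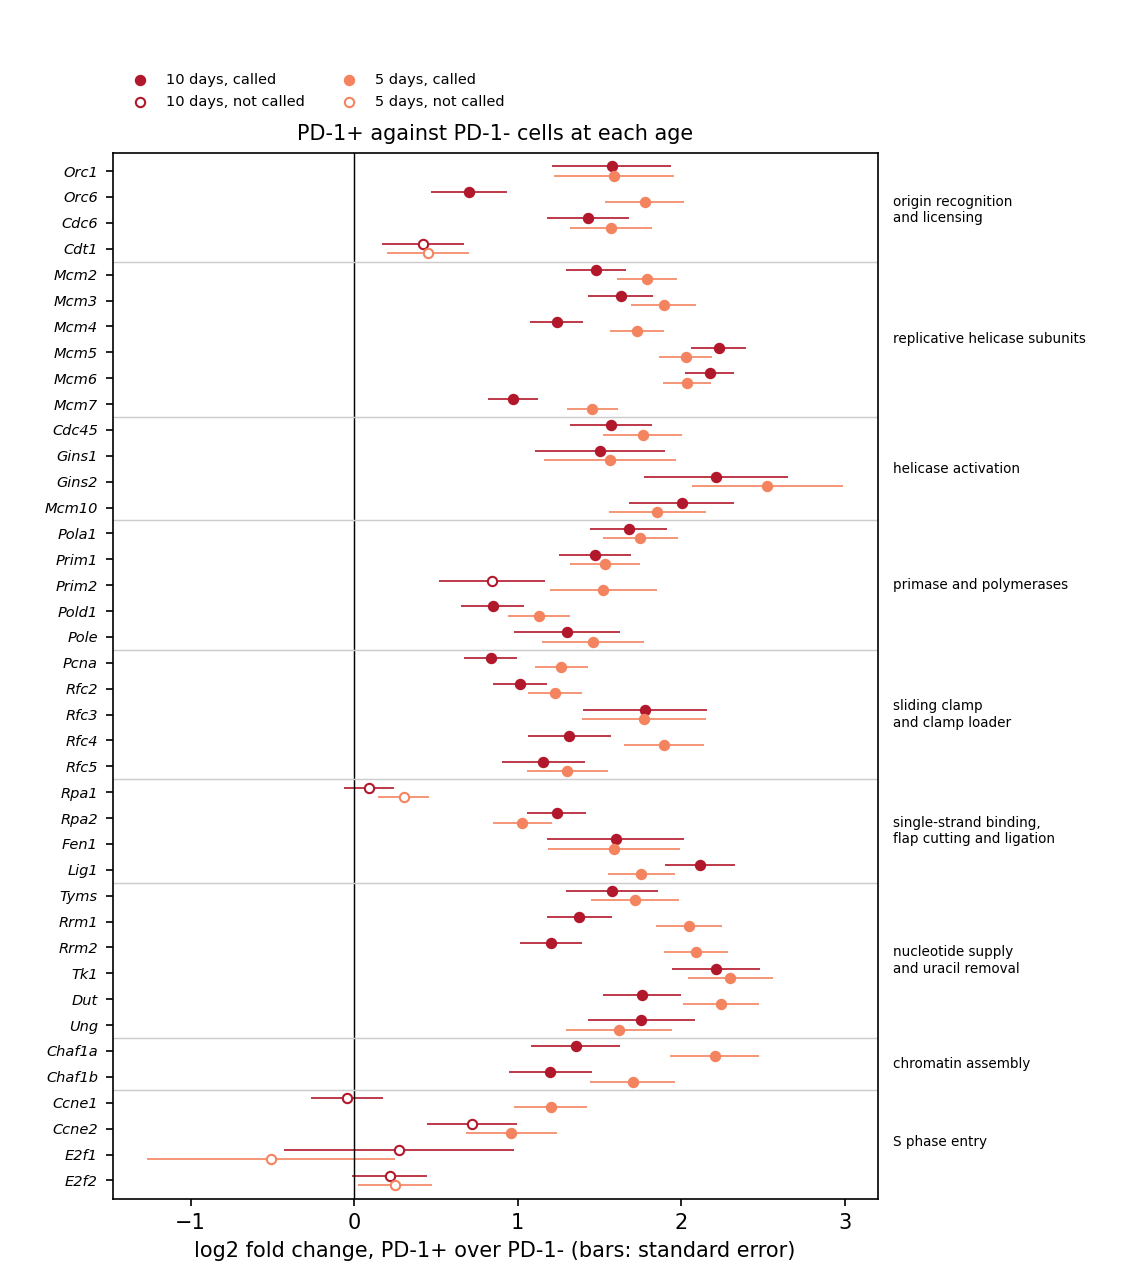
Log2 fold change of PD-1+ over PD-1- cells at 10 and at 5 days for each of the 40 replication genes, with standard errors from the edgeR fit. Filled points were called; 39 of 40 values lie above 0 at each age, the others being Ccne1 at 10 days and E2f1 at 5 days.

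Whether the PD-1 difference itself changed with age was tested by the interaction of age and PD-1. The test called 1 of the 40 genes, Ccne1, where 0.923% of all tested genes were called in that direction and 1.20% in the other, in which no member was called. Ccne1 had a log2 fold change of -0.04 ± 0.22 at 10 days (edgeR adjusted p = 0.906) and 1.20 ± 0.22 at 5 days (edgeR adjusted p = 0.000541). The difference between them was -1.24 ± 0.31 (edgeR adjusted p = 0.048), close to the threshold: over 14 alternatives it ranged from -1.67 to -1.02 with adjusted p of 0.0222 to 0.248, and 8 of them called it. It was not called without either 5-day replicate 2 library or without any 1 of the 10-day libraries. Without 5-day PD-1- replicate 3, Rrm1 and Rrm2 were called too, which makes 3. At an unadjusted p below 0.05, 7 members were lower and 0 higher in this test, and DESeq2 called 2 lower. Next came Rrm2, with a difference of -0.88 ± 0.27 (edgeR adjusted p = 0.108), and Orc6, with -1.07 ± 0.34 (edgeR adjusted p = 0.113). Rrm2 was called in 5 of the 14 alternatives: with no filter on low counts, DESeq2 or a replicate block, without 5-day PD-1- replicate 3, and without both 5-day libraries numbered 3. Its adjusted p ranged from 0.0036 to 0.293 over them.

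Within PD-1+ cells, 12 of the 40 genes were lower at 10 days than at 5 days and 0 higher. Over all tested genes 6.98% were lower and 7.39% higher. Those called were Mcm2, Mcm4, Mcm5 and Mcm7 of the helicase, Cdc45, the clamp Pcna and its loader subunit Rfc4, the nucleotide genes Tyms, Rrm1, Rrm2 and Dut, and Ccne1. No member was higher at an unadjusted p below 0.05, 21 were lower, and DESeq2 called 9 lower and 0 higher. The median log2 fold change of the members was -0.47, against 0.05 for all genes, and 36 of 40 values were below 0 (90.0%, against 47.3% of all genes). In 30 members both 10-day PD-1+ libraries lay below both 5-day PD-1+ libraries, as in 27.2% of all tested genes. Nucleotide genes had the lowest group median, -0.90, and the origin licensing genes stood at -0.17.

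The largest of these differences within PD-1+ cells was that of Rrm2, with 562 and 598 CPM at 10 days and 1261 and 1230.3 CPM at 5 days (log2 fold change -1.10 ± 0.19, edgeR adjusted p = 0.00146). Rfc4 had 63.4 and 51.0 CPM at 10 days and 132 and 103 CPM at 5 days (log2 fold change -1.04 ± 0.23, edgeR adjusted p = 0.00703). Tyms had 115 and 115 CPM at 10 days and 245 and 228 CPM at 5 days (log2 fold change -1.04 ± 0.26, edgeR adjusted p = 0.0176). In each of these 3 genes both 10-day PD-1+ libraries lay well below both 5-day PD-1+ libraries. Rrm1 differed by -0.91 ± 0.19 (edgeR adjusted p = 0.00655), Dut by -0.88 ± 0.22 (edgeR adjusted p = 0.015) and Cdc45 by -0.73 ± 0.23 (edgeR adjusted p = 0.0415). Within the helicase the values were -0.64 ± 0.18 for Mcm2 (edgeR adjusted p = 0.0241), -0.63 ± 0.16 for Mcm5 (adjusted p = 0.0126), -0.57 ± 0.15 for Mcm7 (adjusted p = 0.0172) and -0.50 ± 0.16 for Mcm4 (adjusted p = 0.0423). Mcm3 was just outside the threshold at -0.55 ± 0.19 (adjusted p = 0.0647), and Mcm6 stood at -0.02 ± 0.14 (adjusted p = 0.953). The levels of Mcm6 in PD-1+ cells overlapped between the ages, whereas those of Mcm2, Mcm4, Mcm5 and Mcm7 did not. The difference between Mcm6 and its partners was not tested.

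The count of 12 rests on few libraries. It was 2 without 5-day PD-1+ replicate 2 and 2 without 10-day PD-1+ replicate 2, with Rrm1 and Rrm2 called both times, and in each case the lone library left at that age is assumed to vary like the other groups. It was 6 without 5-day PD-1+ replicate 3, 8 without 10-day PD-1+ replicate 1, and 9 without both 5-day libraries numbered 3, those with Y-linked counts. Rrm2 was called lower in each of these fits.

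**Figure D3:**
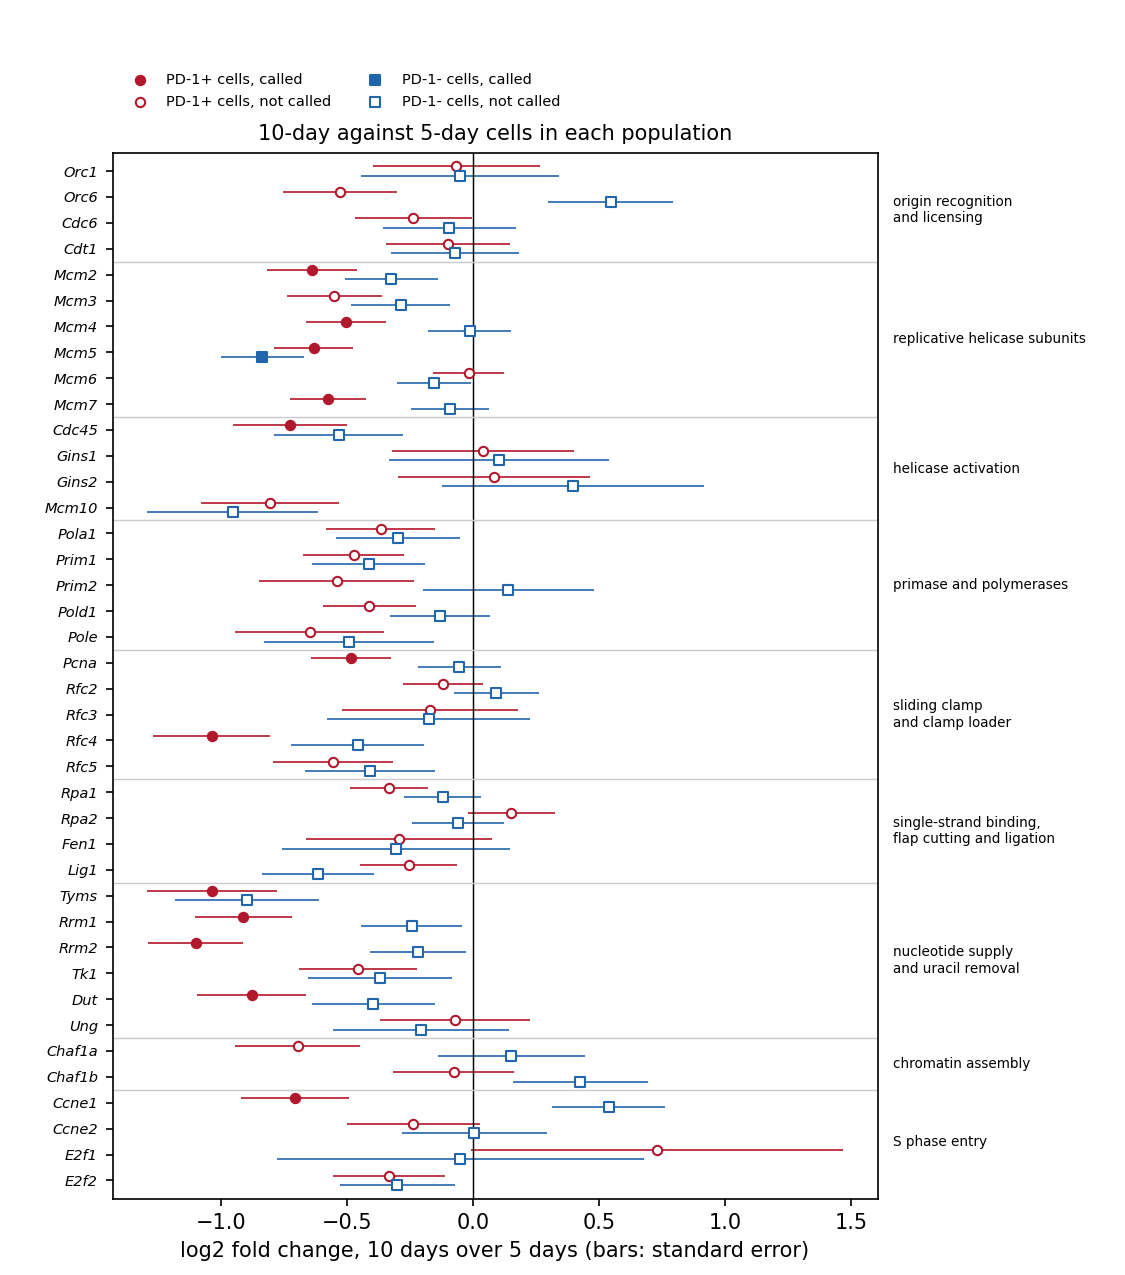
Log2 fold change of 10 over 5 days in PD-1+ cells and in PD-1- cells for each of the 40 replication genes, with standard errors from the edgeR fit. In PD-1+ cells 36 values are below 0 and 12 genes were called; in PD-1- cells 31 are below 0 and Mcm5 was called.

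Within PD-1- cells, 1 of the 40 genes was lower at 10 days and 0 higher, where 0.122% of all tested genes were lower and 0.148% higher. It was Mcm5, with 95.5 and 109 CPM at 10 days and 171 and 192 CPM at 5 days (log2 fold change -0.84 ± 0.17, edgeR adjusted p = 0.0418), and the call was lost in 6 of the 8 fits that leave out 1 library, namely those without any 1 of the 4 PD-1- libraries or of the 5-day PD-1+ libraries, and without both 5-day libraries numbered 3. At an unadjusted p below 0.05, 4 members were lower and 2 higher, and DESeq2 called 1 lower and 0 higher. The median log2 fold change was -0.17, against -0.01 for all genes, with 31 of 40 values below 0. The median was -0.05 without 5-day PD-1- replicate 3, without 10-day PD-1- replicate 2 or without both 5-day libraries numbered 3, with 21, 23 and 21 values below 0 in that order. In 12 members both 10-day PD-1- libraries lay below both 5-day PD-1- libraries, as in 20.7% of all tested genes. The 2 age comparisons use different libraries, and 29 genes had values below 0 in both.

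Other genes of the pathway, taken from lists, moved less evenly. Of 48 further replication genes, 28 had more RNA in PD-1+ cells over both ages and 2 had less, with a median log2 fold change of 0.65, where 21.9% of all tested genes were called higher and 19.6% lower. The highest ranked by p were Uhrf1, which reads hemimethylated DNA behind the fork (log2 fold change 1.65 ± 0.14, edgeR adjusted p = 3.79e-07), Tipin of the fork protection complex (log2 fold change 1.65 ± 0.15, adjusted p = 7.08e-07), the Pcna-binding Pclaf (log2 fold change 1.81 ± 0.18, adjusted p = 1.73e-06) and the histone chaperone Asf1b (log2 fold change 1.40 ± 0.15, adjusted p = 3.95e-06). The 2 lower were Mcmbp, a partner of the Mcm complex (log2 fold change -0.78 ± 0.17, edgeR adjusted p = 0.00215), and Mcm9, an Mcm-like protein of repair (log2 fold change -1.22 ± 0.30, adjusted p = 0.00471). With age in PD-1+ cells, 8 of these 48 were lower and 1 higher, beside 6.98% and 7.39% of all tested genes.

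The genes that govern passage from G1 to S phase split by gene. Of 18 tested genes of the G1 list, 9 had more RNA in PD-1+ cells and 1 had less, beside the same 21.9% and 19.6% of all tested genes. E2f3, the third activating E2F factor, had 28.5 and 32.7 CPM in 10-day and 32.4 and 33.9 CPM in 5-day PD-1+ libraries, against 6.15 and 7.15 CPM in 10-day and 5.51 and 7.95 CPM in 5-day PD-1- libraries. Its populations did not overlap (log2 fold change 2.27 ± 0.26, edgeR adjusted p = 7.36e-06), whereas those of E2f1 and E2f2 did. Cdk4, the kinase of D-type cyclins, differed by 0.96 ± 0.13 (edgeR adjusted p = 3.95e-05), the E2F partner Tfdp1 by 1.28 ± 0.20 (adjusted p = 0.000155) and the repressive E2f4 by 1.04 ± 0.20 (adjusted p = 0.000868). The other partner Tfdp2 was the gene called lower (log2 fold change -0.66 ± 0.20, edgeR adjusted p = 0.0174).

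Among 13 tested inhibitors of the cell cycle, 5 were lower and 2 higher in PD-1+ cells, beside 19.6% lower and 21.9% higher over all tested genes. Cdkn1a, which encodes the inhibitor p21 of cyclin-dependent kinases, had 141 and 103 CPM in 10-day and 200.2 and 113 CPM in 5-day PD-1+ libraries, against 2.91 and 5.85 CPM in 10-day and 3.56 and 6.25 CPM in 5-day PD-1- libraries. Every PD-1+ library exceeded every PD-1- library by more than 10-fold (log2 fold change 4.99 ± 0.29, edgeR adjusted p = 9.61e-09). Cdkn1b, which encodes the related inhibitor p27 of resting cells, had 79.8 and 94.9 CPM in 10-day and 82.3 and 75.0 CPM in 5-day PD-1+ libraries, against 209 and 211 CPM in 10-day and 213 and 214 CPM in 5-day PD-1- libraries, the opposite order and again without overlap (log2 fold change -1.35 ± 0.13, edgeR adjusted p = 1.33e-06). Also lower were the antiproliferative genes Tob1 (log2 fold change -2.59 ± 0.30, edgeR adjusted p = 9.71e-05), Btg1 (log2 fold change -1.59 ± 0.21, adjusted p = 4.76e-05), Ccng2 (log2 fold change -0.94 ± 0.16, adjusted p = 0.000275) and Cdkn2d (log2 fold change -0.66 ± 0.16, adjusted p = 0.00412), and the other higher gene was Btg2 (log2 fold change 0.74 ± 0.14, adjusted p = 0.000589).

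**Figure D4:**
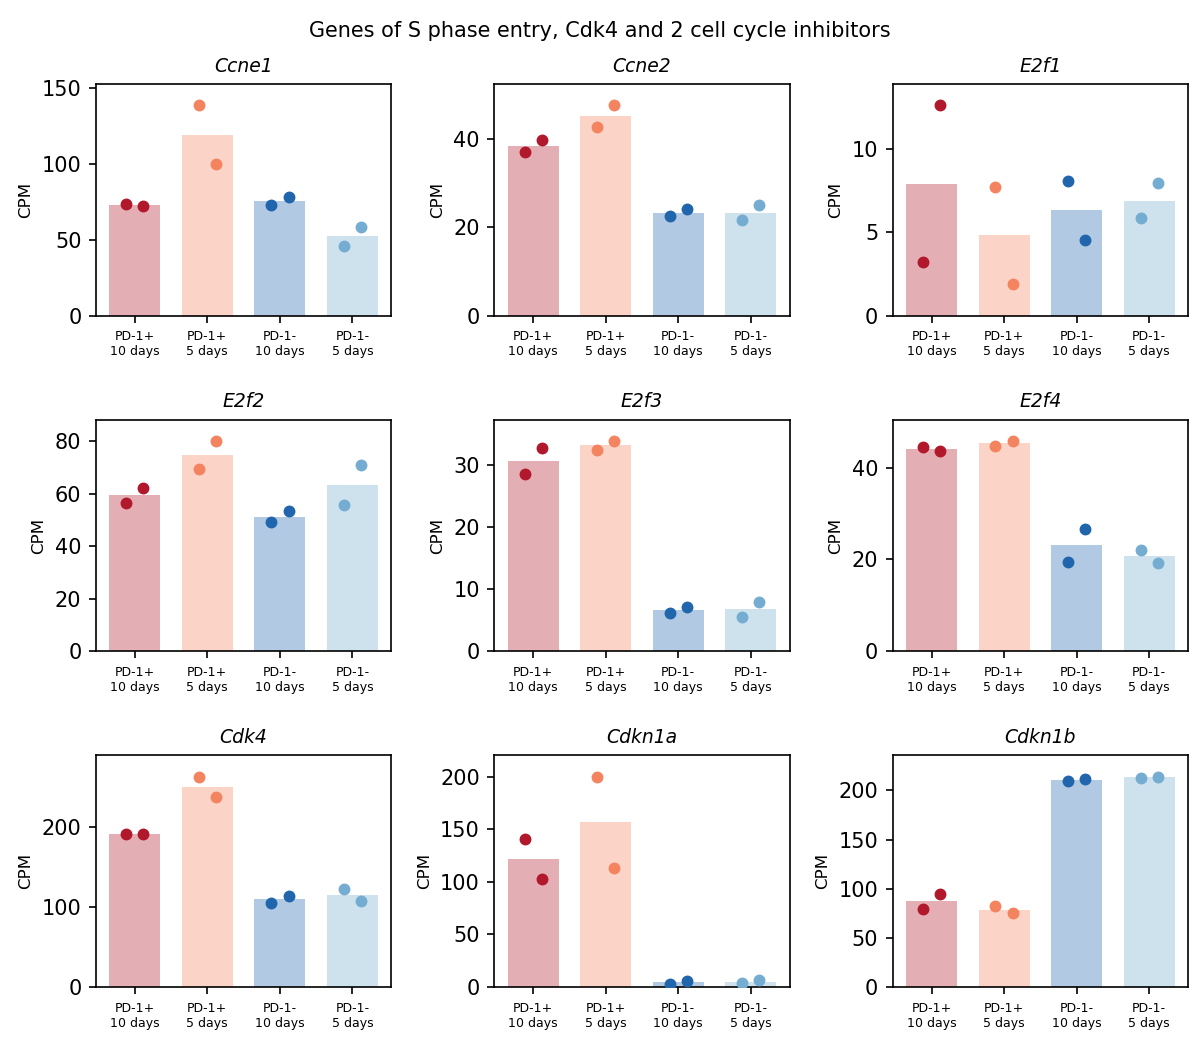
CPM of 9 genes of S phase entry and its control (Ccne1, Ccne2, E2f1, E2f2, E2f3, E2f4, Cdk4, Cdkn1a, Cdkn1b) in the 4 groups; bars are the mean of 2 libraries and points the libraries. Cdkn1a and E2f3 are higher in PD-1+ cells at both ages, Cdkn1b is lower, and E2f1 stays below 13 CPM in every library.

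Mitosis genes, most of which act after replication in the cell cycle, gave a comparison for the summed level. Their list includes Mki67 and Top2a, and bulk libraries do not show whether both sets of transcripts came from the same cells. Of 23 tested mitosis genes, 17 had more RNA in PD-1+ cells over both ages and 0 had less, with a median log2 fold change of 0.80, beside 21.9% and 19.6% of all tested genes. At 10 days 5 of the 23 were higher, a share near the 16.4% of all tested genes, and at 5 days 13 were, beside 17.6%. Those with the smallest p were Aurkb (log2 fold change 1.14 ± 0.17, edgeR adjusted p = 7.81e-05), Aurka (log2 fold change 1.49 ± 0.24, adjusted p = 0.000194) and Ttk (log2 fold change 1.21 ± 0.21, adjusted p = 0.000356), kinases of the spindle and its checkpoint, and the mitotic kinase Cdk1 (log2 fold change 1.37 ± 0.25, adjusted p = 0.00158). With age in PD-1+ cells 10 of the 23 were lower, beside 6.98% of all tested genes, and all 23 values were below 0 with a median of -0.96. In PD-1- cells 22 of the 23 values were below 0, with a median of -0.59. There 0 were called, beside 0.122% of all tested genes called lower and 0.148% higher. The interaction of age and PD-1 called 0 of the 23, beside 0.923% of all tested genes lower and 1.20% higher.

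Summed over the 40 replication genes, PD-1+ libraries held 7297 and 6426 CPM at 10 days and 10216 and 9574 CPM at 5 days, against 2870 and 2786 CPM at 10 days and 3082 and 3397 CPM at 5 days in PD-1- libraries. The 23 mitosis genes summed to 3008 and 3827 CPM at 10 days and 6726 and 7255 CPM at 5 days in PD-1+ libraries, against 1928 and 3103 CPM at 10 days and 2722 and 4752 CPM at 5 days in PD-1- libraries. The replication sum separated the populations at every library, whereas the mitosis sums overlapped: 5-day PD-1- replicate 3 lay above both 10-day PD-1+ libraries. The ratio of the replication sum to the mitosis sum was 2.43 and 1.68 at 10 days and 1.52 and 1.32 at 5 days in PD-1+ libraries, against 1.49 and 0.898 at 10 days and 1.13 and 0.715 at 5 days in PD-1- libraries. At each age both PD-1+ ratios lay above both PD-1- ratios, and in PD-1+ cells both 10-day ratios lay above both 5-day ratios, while the ages overlapped in PD-1- cells. No test was run on these sums.

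**Figure D5:**
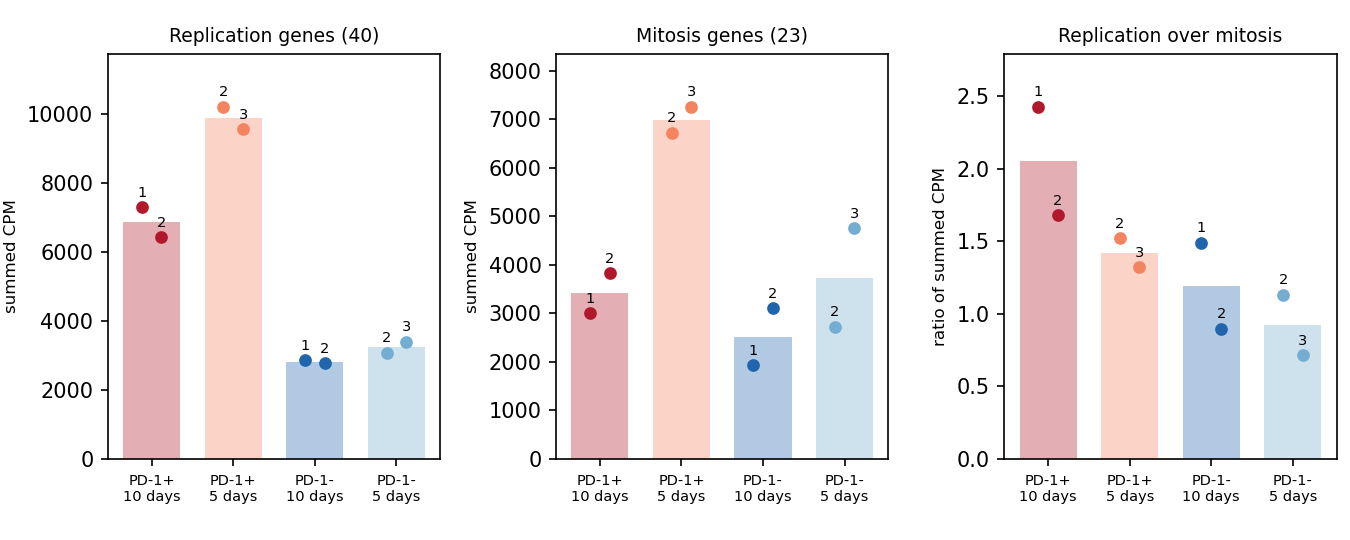
Summed CPM of the 40 replication genes, summed CPM of 23 mitosis genes, and their ratio in each library, with the replicate number printed at each point. The replication sums are 6426 to 10216 CPM in PD-1+ libraries and 2786 to 3397 CPM in PD-1- libraries, and the mitosis sums of the populations overlap.

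Markers of other cells that neonatal liver holds were read beside these results. In this paragraph CPM is counts per 1000000 counts of all symbols in the library, without the TMM factor. These sums are therefore not on the scale of the CPM above. The 11 T cell markers summed to 5672 to 10358 CPM in PD-1+ libraries and 6903 to 7950 CPM in PD-1- libraries. Both 10-day PD-1+ libraries lay above all PD-1- libraries, and both 5-day PD-1+ libraries lay below them. The counts were 29450 and 24793 in 10-day PD-1+ libraries, of 2843311 and 2791009 in all. In 5-day PD-1+ libraries they were 12568 and 14240, of 2215852 and 2365447 in all. The part of this difference in the age comparison of PD-1+ cells was not tested. The 11 erythroid markers in the table summed to 2.87 to 6.33 CPM in PD-1+ libraries and 11.5 to 30.8 CPM in PD-1- libraries. Gata1 made most of that difference, with 11 counts in PD-1+ libraries and 162 in PD-1- libraries; the other 10 had 33 counts in PD-1+ libraries and 41 in PD-1- libraries, and the globin genes had 30 counts over all 8 libraries. Neutrophil and myeloid progenitor markers stood at 1.81 to 4.30 CPM in PD-1+ libraries and 2.04 to 4.31 CPM in PD-1- libraries. The part of these cells in the results was not tested. Hepatocyte markers summed to 30.9 to 78.1 CPM in PD-1+ libraries and 12.9 to 22.9 CPM in PD-1- libraries, with 4 of 5 tested genes called higher, and their part in the results was not tested. Macrophage and Kupffer markers spanned 28.4 to 34.7 CPM in PD-1+ libraries and 3.39 to 41.0 CPM in PD-1- libraries. Their counts at 10 days were 98 and 83 in PD-1+ against 12 and 5 in PD-1- libraries. At 5 days they were 63 and 82 against 33 and 70. Of 4 tested genes, Cd5l was called higher (log2 fold change 2.48, edgeR adjusted p = 0.0189), and their part in the results was not tested. B cell markers spanned 30.7 to 49.5 CPM in PD-1+ libraries and 17.3 to 89.6 CPM in PD-1- libraries. Thymocyte markers summed to 7.19 to 28.8 CPM in PD-1+ libraries and 34.6 to 55.3 CPM in PD-1- libraries. Of these, Cd8b1 was called lower, with 100 counts in PD-1+ libraries and 326 in PD-1- libraries, while the other 5 had 78 counts in PD-1+ libraries and 88 in PD-1- libraries, and Cd8a had a log2 fold change of 0.62 (edgeR adjusted p = 0.507). The endothelial and stromal list (102 to 137 CPM in PD-1+ libraries, 313 to 388 CPM in PD-1- libraries) was nearly all Pecam1, a gene that T cells also express, with 1170 counts in PD-1+ libraries and 3071 in PD-1- libraries; its other 6 genes had 53 counts in PD-1+ libraries and 35 in PD-1- libraries.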

How the data were processed

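The authors deposited raw read counts per gene symbol for 8 libraries, a unit read per the file headers and checked to hold whole numbers; all 8 columns matched a sample title. Per the submitters' processing notes the tools were STAR 2.5.4 and featureCounts, on mm10. Their annotation, strand setting and treatment of multiply mapped reads: not given in the sources used here. Genes were kept by filterByExpr, scaled by TMM and tested in R 4.3.3 with edgeR 4.0.16 robust quasi-likelihood fits over all 11490 genes, tested on simulated data. The pooled PD-1 difference came from additive terms for age and PD-1, the others from contrasts of the 4 groups. Adjustment was by Benjamini-Hochberg over every tested gene. The ± of a log2 fold change is its standard error, its size over the root of F. Alternatives were DESeq2 1.42.0, other size factors, no filter, a replicate block and leaving out libraries. Replicates of a group differed by more than counting error (chi-square per degree of freedom 4.00 to 8.61). Promoter windows come from RefSeq (GRCm38.p6), coordinates and exon lengths from GENCODE M21.

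The members and lists were chosen with earlier results of these data known. Given library by library were, in each role group, the 2 genes with the highest mean log2 CPM, every member not called over both ages or called for age or in the interaction, and those with the largest and smallest pooled fold change (26 genes). Of the other lists, up to 4 genes with the smallest p and all called in the minority direction were named.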

Additional observations from a re-analysis of the deposited data

Results flagged for a closer look

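Ccne1, the cyclin E1 gene, was called in the edgeR interaction test of age and PD-1, with a difference of the log2 fold changes at 10 and 5 days of -1.24 (edgeR adjusted p = 0.048). At 10 days it had 73.7 and 72.4 CPM in PD-1+ libraries and 72.9 and 78.1 CPM in PD-1- libraries, and at 5 days 139 and 99.8 CPM in PD-1+ libraries and 46.0 and 58.5 CPM in PD-1- libraries. The populations overlapped at 10 days and stood apart at 5 days. With 2 libraries in a group, the adjusted p ranged from 0.0222 to 0.248 over 14 alternatives. Rrm2, not called in that fit, was called in 5 of the 14.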

How the results depend on the processing

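The counts of members higher in PD-1+ cells (35 over both ages, 33 at 10 days, 36 at 5 days) moved by less than 1.5 times under every alternative run: RLE or upper-quartile factors, no filter on low counts, DESeq2, the replicate block, and leaving out 1 library or both 5-day libraries numbered 3. Same-numbered libraries of an age were not treated as pairs, since the labels share a number but do not say that they share an animal. The correlation of their deviations was 0.0938 at 5 days and 0.114 at 10 days. It was taken over all tested genes, with counting error included, so a low value cannot show that they were unpaired. At 5 days same-numbered libraries matched in Xist and Y-linked counts. With the replicate block, 35 members were higher over both ages, 34 at 10 days and 36 at 5 days, and 2 (Ccne1 and Rrm2) were lower in the interaction; for the age comparisons no block could be fitted, because each pair belongs to 1 age. The 12 members lower at 10 days in PD-1+ cells were 2 to 12 when 1 library was left out. The 1 member lower at 10 days in PD-1- cells became 0 with upper-quartile factors, 2 with no filter, 0 without both 5-day libraries numbered 3, and 0 to 1 with 1 library left out. The 1 member lower in the interaction became 2 with no filter, with DESeq2 and without both 5-day libraries numbered 3, and 0 to 3 with 1 library left out. The pooled PD-1 value of E2f1, -0.09 ± 0.53, ranged from -0.69 to 0.25 when 1 library was left out and was 0.25 without 5-day PD-1+ replicate 3, 0.06 without 5-day PD-1- replicate 3, 0.18 without 10-day PD-1+ replicate 1 and 0.32 without both 5-day libraries numbered 3; the cause was not tested, and E2f1 had 128 counts in all. With 2 libraries in a group, an age difference that missed the threshold does not show equal levels.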

Other observations

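Of the G1 genes, 2 were chosen after their values were seen, for an age and PD-1 interaction past the threshold. Myc, a transcription factor of growth, had 42.7 and 40.1 CPM in 10-day and 159 and 126 CPM in 5-day PD-1+ libraries, against 52.8 and 44.2 CPM in 10-day and 50.5 and 46.6 CPM in 5-day PD-1- libraries. The 5-day PD-1+ libraries stood alone, and the other 3 groups lay between 40.1 and 52.8 CPM. Its PD-1 difference was -0.24 ± 0.22 at 10 days (edgeR adjusted p = 0.466) and 1.55 ± 0.22 at 5 days (edgeR adjusted p = 4.56e-05), and the interaction was -1.78 ± 0.31 (edgeR adjusted p = 0.00663). Cdk6, a kinase of D-type cyclins, went the other way, with 328 and 218 CPM in 10-day and 170.4 and 163 CPM in 5-day PD-1+ libraries, against 54.1 and 67.0 CPM in 10-day and 147 and 97.1 CPM in 5-day PD-1- libraries. Its PD-1 difference was 2.19 ± 0.24 at 10 days (edgeR adjusted p = 8.44e-06) and 0.44 ± 0.23 at 5 days (edgeR adjusted p = 0.154), with an interaction of 1.75 ± 0.33 (edgeR adjusted p = 0.0137).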
